A study of Mus musculus with 12 samples.

Results

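Mutations in genes that read, write and move chromatin are a common cause of human developmental disorders with intellectual disability, as are mutations in MED13L, a subunit of the kinase module of the Mediator complex. The 35 mouse genes described here are such chromatin regulators: CHD and BAF remodellers, histone and DNA methyltransferases, demethylases and acetyltransferases, adaptor proteins, and the cohesin ring with its loader and CTCF. They were listed by name for their link to these disorders, not by any measured value. Earlier results of these data were known when the list was chosen. All 35 were found by Ensembl gene ID among the 55335 genes of the count table. Their transcripts were followed in mouse embryonic brain cortex at E13.5, in 3 libraries of each of 3 genotypes: wild type (WT), heterozygous for Med13l (Het), and homozygous null for Med13l (KO). The embryos came from matings of Med13l heterozygous mice and were genotyped before dissection, and the labels name no other allele, treatment or strain. The labels do not say how the null allele was made or whether each library came from a separate embryo, so p-values measure the spread between these libraries, which may be technical. The 3 single-cell samples of the series were not analysed here.

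Chromatin remodellers use ATP to slide, evict or exchange nucleosomes. Methyltransferases and acetyltransferases place marks on histone tails or on DNA, demethylases remove them, and cohesin with CTCF folds the fibre into loops. In the embryonic cortex these activities set which genes are open in dividing progenitors and which are opened or closed as neurons form. Mediator, to which MED13L belongs, passes signals from transcription factors at enhancers to RNA polymerase II at promoters.

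Library totals ran from 37909377 to 52992392 counts, and a member had between 1898 and 55601 counts in a library. Levels are given in CPM, counts relative to library sizes scaled by TMM, and levels of different genes are compared only as CPM per kb of exon. That length is the union of all annotated exons of a gene and can exceed any single transcript, so orders between genes depend on it. Libraries did not all have the same cell makeup. Het 1 had the lowest summed CPM of 12 dorsal cortex markers, at 1082 against 2245 to 3520 in the others, and the highest of 8 tested thalamic and diencephalic markers (of 9 listed), at 1316 against 79.0 to 147. By these markers the label cortex holds less well for that library. KO 1 had the lowest sum of 12 neuron markers (2425 CPM) and, with KO 2, the highest sums of 8 meningeal markers (2117 and 1911 CPM against 573 to 1101). Sums of 10 ganglionic eminence markers were lowest in Het 2 and KO 1 (95.8 and 112 CPM). They were highest in Het 3 and KO 2 (549 and 598 CPM), and the rest lay between 270 and 359. Med13l itself averaged 136 ± 16.9 CPM in WT, 153 ± 10.0 in Het and 149.7 ± 17.5 in KO (SD, n = 3), so its whole-gene count does not check the genotype labels. In bulk tissue, fewer cells of a type and less RNA per cell cannot be told apart.

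All 35 members were expressed in every library, and all 35 passed the filter on low counts that left 18844 genes to test. Each lay above the median tested gene in CPM per kb, between the 65.6th and the 98.7th percentile. Smarcc2, a scaffold subunit of BAF, had the highest mean level at 122 CPM per kb over the 9 libraries (range 98.0 to 132). Chd3 followed at 119.6 (range 102 to 136), then Smarca4 at 113, Chd4 at 105 and Rad21 at 91.5. Each of these 5 overlapped its neighbour in the order across libraries. The next member, Adnp at 53.7 (range 39.8 to 62.6), lay below the lowest library of Rad21 (77.1). At the other end stood the X-linked demethylase gene Kdm6a at 8.12 CPM per kb (range 5.07 to 10.5) and Smarca2 at 9.49 (range 7.56 to 11.2), which overlapped each other. For 28 members the highest library was less than 1.5 times the lowest, and the widest ratio, 2.07, was that of Kdm6a. The share over all tested genes was not computed, so this count is not a trait particular to the members.

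In 2 libraries most members were low together. In WT 3, 31 of 35 members lay below their own mean over the 9 libraries, by a median of -0.23 on the log2 scale, and 23 members had their lowest level there. In KO 1, 29 members lay below their mean, with a median of -0.13, and 9 had their lowest level there. The other 7 libraries had medians between 0.013 and 0.079. The members have long annotated exon unions, of 4.23 to 22.9 kb with a median of 10.8 kb, against a median of 3.78 kb over all tested genes. Lengths of the transcripts present in these libraries were not measured. Among all genes above 10 CPM, the 1303 with 10 kb of exon or more were also low in WT 3 (-0.13) and KO 1 (-0.14), while the 1070 genes under 2 kb were high in both (0.15 and 0.11). The part of exon length in the members' levels was not tested.

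**Figure D1:**
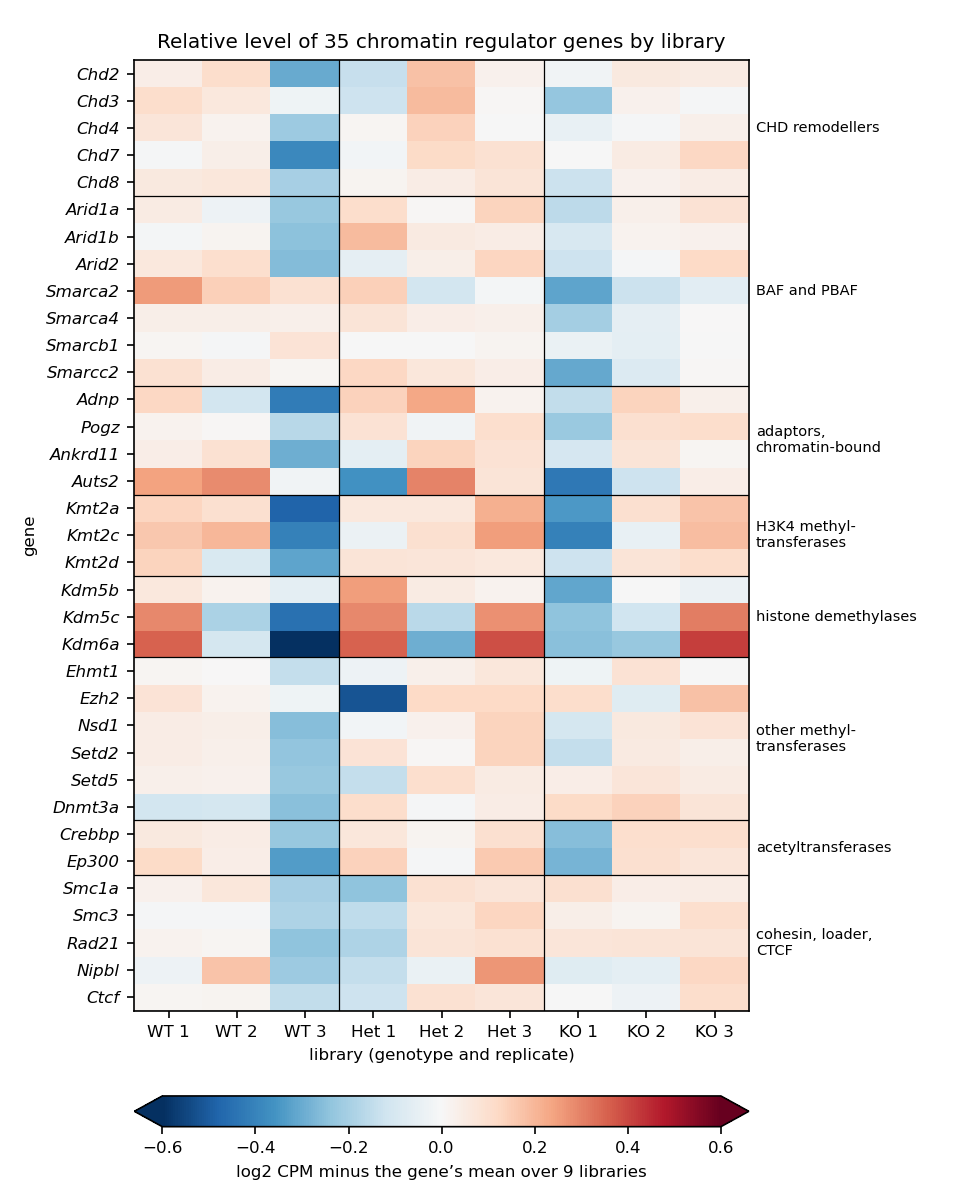
Level of each of the 35 genes (rows, by role) in each library (columns), as log2 CPM minus the gene's mean over 9 libraries; blue is lower and red is higher. WT 3 and KO 1 are blue for most genes (31 and 29 of 35 below their mean), and Kdm5c and Kdm6a follow a pattern of their own.

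**Figure D2:**
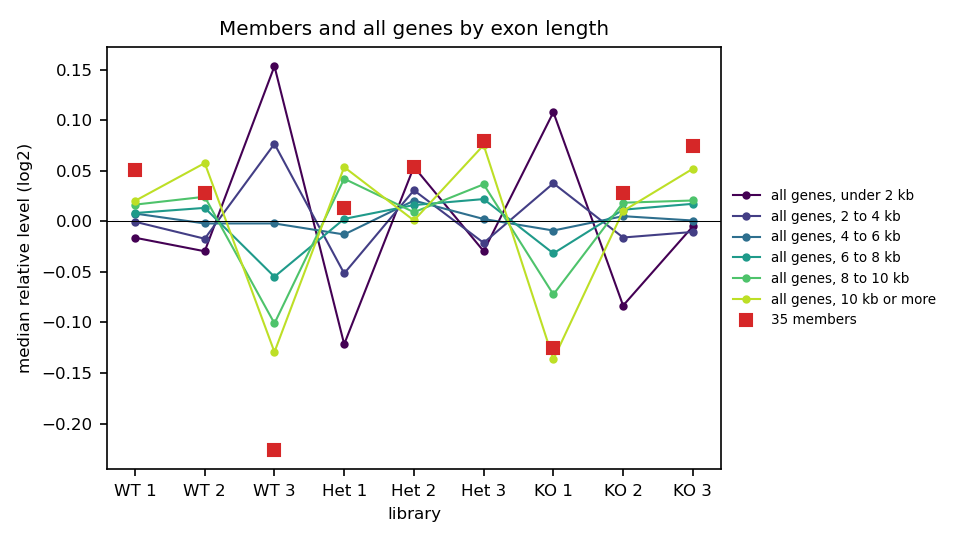
Median relative level (log2) by library of all genes above 10 CPM, in 6 classes of exon length (lines), and of the 35 members (squares). In WT 3 and KO 1 the longest genes are lowest (-0.13 and -0.14) and the shortest are highest (0.15 and 0.11), and the members lie with or below the longest class (-0.23 and -0.13).

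Loss of both copies of Med13l came with no called difference in any member. In KO against WT, 0 of 35 members had an adjusted p under 0.05 in edgeR's quasi-likelihood test, against 0.00531% of the 18844 genes tested, and DESeq2 and limma-voom also called 0. Smarca2, the gene of a BAF ATPase, and Dnmt3a, the gene of a DNA methyltransferase that writes new methylation, were the 2 members with an unadjusted p under 0.05. The share over all genes was 5.72%, so 2 of 35 is close to the background. KO and WT libraries did not overlap for 7 members, against 15% of all genes: Smarca2, Smarca4 and Smarcc2 were lower in KO, and Setd5, Dnmt3a, Smc3 and Rad21 were higher. Most members were bounded closely, since the 95% interval of the fold change lay within 1.5-fold in either direction for 33 of 35, against 44.2% of all genes. The exceptions were Auts2 and Kdm6a. Every member had at least 1898 counts in each library. The part of count level in this contrast with all genes, here and in the other comparisons, was not tested.

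The direction of the KO and WT difference was not stable. The log2 fold change was positive for 27 of 35 members, with a median of 0.047, where 50.1% of all genes were positive with a median of 0.0007. Without WT 3 it was positive for 9 of 35, with a median of -0.049, and without KO 3 for 17, with a median of -0.0084. Leaving out any other single library gave 21 to 28 positive, with medians from 0.032 to 0.086, the highest median being that without KO 1. Without both WT 3 and KO 1, a choice made after seeing the data, 19 were positive and the median was 0.005. Sample descriptions carry a letter, D or F, whose meaning the labels do not give. Among the libraries with D, 2 against 2, 7 of 35 members were positive with a median of -0.076, and between the 2 libraries with F, which include WT 3, 31 of 35 were positive with a median of 0.29.

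With 1 functional copy of Med13l the picture was much the same. In Het against WT, 0 of 35 members were called, and 0% of all genes were. Dnmt3a alone among the members had an unadjusted p under 0.05, against 1.56% of all genes. Het and WT libraries did not overlap for Arid1b and Dnmt3a, both higher in Het, against 5.18% of all genes. The interval lay within 1.5-fold for 32 of 35 members, against 47.7% of all genes, the exceptions being Kmt2a, Kdm5c and Kdm6a. Positive log2 fold changes numbered 30 of 35, with a median of 0.088, and 22 without WT 3, with a median of 0.015. Leaving out any other single library gave 28 to 32, with medians from 0.059 to 0.13, and 32 was reached without Het 1 (median 0.12). Positive values are split by letter next. They numbered 13 of 35 among the libraries with D (median -0.027) and 33 of 35 between those with F (0.31). Over all genes, 50.5% were positive, with a median of 0.0021. Both this comparison and KO against WT use the same WT libraries, WT 3 included.

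Between KO and Het, 0 of 35 members were called, against 0.00531% of all genes, and 0 had an unadjusted p under 0.05, against 7.74%. By that unadjusted threshold DESeq2 and limma-voom each had 1 member, Smarcc2. The libraries did not overlap for Arid1b, Smarca4, Smarcc2 and Kdm5b, all lower in KO, against 11.1% of all genes. The interval lay within 1.5-fold for 31 of 35, against 42.1%, with Auts2, Kmt2c, Kdm5c and Kdm6a outside. The log2 fold change was positive for 8 of 35 members, with a median of -0.058, against 49.0% and -0.0062 over all genes. Without KO 1 it was positive for 16, with a median of -0.019, and without Het 1 for 1, with a median of -0.079. Among the libraries with D 8 were positive (median -0.095), and between those with F 13 (-0.019).

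**Figure D3:**
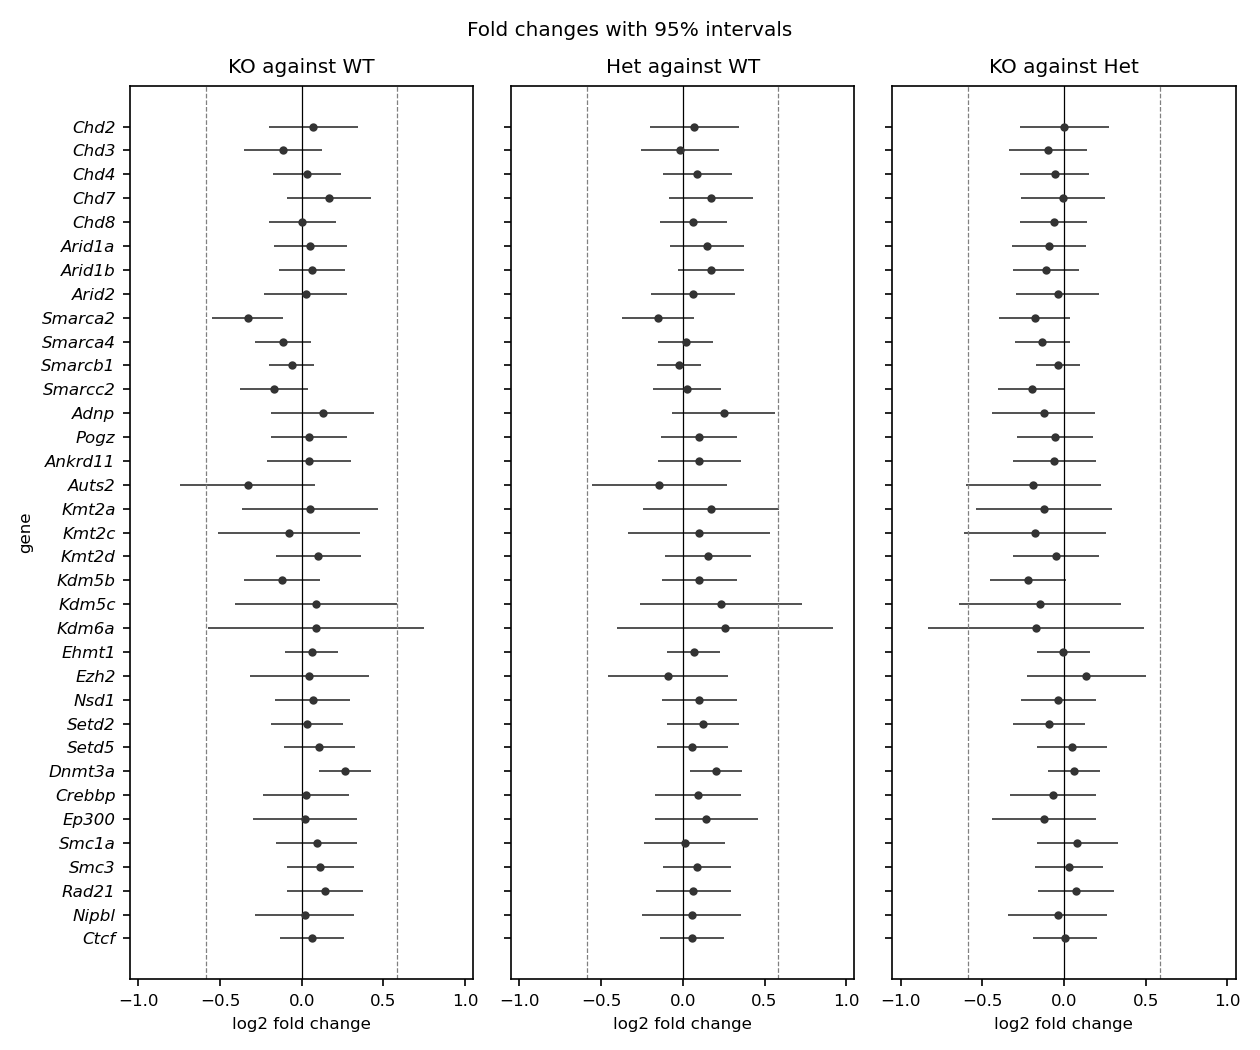
Log2 fold change of each member (points) with its 95% interval (lines) in KO against WT, Het against WT and KO against Het, from edgeR's fit of all 9 libraries; dashed lines mark 1.5-fold. Intervals cross 0 for all members but Smarca2 and Dnmt3a in KO against WT and Dnmt3a in Het against WT, and most lie inside the dashed lines (33, 32 and 31 of 35).

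The CHD genes encode ATP-driven remodellers. Chd3 and Chd4 are alternative motors of the NuRD deacetylase complex, Chd7 is mutated in CHARGE syndrome, Chd8 in a form of autism and Chd2 in an epileptic encephalopathy. Of these, Chd3 has the most transcript per kb. In WT it stood at 1082, 1050.0 and 989 CPM, in Het at 923, 1146 and 1011, and in KO at 858, 1023 and 1002. The 3 genotypes overlapped, with the lowest value in KO 1, and the KO and WT difference was -0.11 log2 (95% interval -0.35 to 0.13). Chd4 averaged 820.4 ± 85.3 CPM in WT, 872 ± 47.7 in Het and 838 ± 22.2 in KO (SD, n = 3). Chd3 per kb was 1.21 ± 0.077 times Chd4 in WT, 1.12 ± 0.075 in Het and 1.09 ± 0.083 in KO (SD, n = 3). The ratio was 1.162, 1.168 and 1.298 in the WT libraries and 0.998, 1.16 and 1.105 in KO. Every KO library thus lay below every WT library, by a narrow margin, and Het overlapped both. The share of gene pairs whose ratios separate in this way was not computed, and 15% of single genes did not overlap between KO and WT. Ratios of Arid1a to Arid1b, Crebbp to Ep300, Kmt2c to Kmt2d and Kdm5b to Kdm5c did overlap. Chd7 was at 243 ± 37.4 CPM in WT, 274 ± 13.1 in Het and 273 ± 12.2 in KO. Its KO and WT difference of 0.17 log2 dropped to 0.047 without WT 3. Chd2 and Chd8 had WT means of 193 and 264 CPM and differed by at most 0.072 log2 in any comparison. A non-coding gene on the same strand, 1810026B05Rik, lies over Chd2 and had 6.87% of its counts.

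BAF and PBAF complexes slide and evict nucleosomes, and their subunits are mutated in Coffin-Siris and related syndromes. Every BAF complex carries 1 of 2 ATPases, SMARCA4 or SMARCA2. Smarca2 was at 160.3, 148 and 143 CPM in WT, 149, 125 and 134 in Het, and 108, 123 and 129 in KO. All KO libraries lay below all WT libraries, and Het overlapped both. The KO and WT difference was -0.33 log2 (SE 0.096, 95% interval -0.55 to -0.11), with an unadjusted p of 0.00762 and an adjusted p of 0.858 in edgeR. Het lay between, at -0.15 log2 from WT (95% interval -0.37 to 0.066), and KO was -0.18 log2 from Het (95% interval -0.40 to 0.039). The KO and WT difference was -0.42 among the libraries with D, -0.16 between those with F, and from -0.39 to -0.27 over 20 other settings, in which the adjusted p was at least 0.295. It was lowest in KO 1, where neuron markers were also lowest, and the part of cell makeup was not tested.

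Smarca4, the gene of the main BAF ATPase of neural progenitors, was at 748, 749 and 746 CPM in WT, 772, 752 and 746 in Het, and 635, 704 and 732 in KO. The KO libraries lay below all others, by -0.12 log2 from WT (95% interval -0.28 to 0.055) and -0.13 from Het (95% interval -0.30 to 0.037, edgeR adjusted p = 0.613). From WT it was -0.065 without KO 1, -0.16 among the libraries with D and -0.026 between those with F. Per kb, Smarca2 was 0.0972, 0.0899 and 0.0872 of Smarca4 in the WT libraries, 0.0874, 0.0752 and 0.0812 in Het, and 0.0772, 0.0792 and 0.0797 in KO. The ratio was lower in every KO library than in every WT library, with Het on both sides, and the share of gene pairs that separate so was not computed. Per kb, Smarca4 thus exceeded Smarca2 in all 9 libraries.

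Smarcc2 encodes BAF170, which limits the pool of intermediate progenitors in the mouse cortex. It was at 719, 696 and 679 CPM in WT, 735, 706 and 694 in Het, and 544, 638 and 678 in KO. KO lay below both other groups, but KO 3 was level with WT 3, and the libraries spread more widely within KO (SD 68.9 CPM) than within WT (SD 20.1 CPM). The difference was -0.17 log2 from WT (95% interval -0.38 to 0.036, edgeR adjusted p = 0.870) and -0.20 from Het (95% interval -0.41 to 0.009, edgeR adjusted p = 0.607). Between the libraries with F it was -0.0006 from WT, against -0.26 among those with D. Without KO 1 the difference from WT was -0.092, and without Het 1 and KO 1 that from Het was -0.092.

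ARID1A and ARID1B exclude each other in BAF, and ARID2 belongs to PBAF. Arid1b was at 134, 136 and 113 CPM in WT, 153, 139.5 and 139 in Het, and 126, 137 and 137 in KO. Het lay above both other groups, by 0.17 log2 from WT (95% interval -0.028 to 0.38, edgeR adjusted p = 0.999), with its highest level in Het 1, and by 0.10 without WT 3. Arid1a averaged 480.4 ± 46.8, 532 ± 24.9 and 498 ± 43.4 CPM in WT, Het and KO (SD, n = 3). Per kb it was 4.14, 4.07 and 4.11 times Arid1b in WT, Het and KO, so the ratio of these alternative subunits hardly moved. Arid2 and Smarcb1, a core subunit, differed by at most 0.062 log2 in any comparison, and Smarcb1 had the smallest ratio of highest to lowest library of all members, 1.102. Of the 7 BAF and PBAF members, 3 had a positive log2 fold change between KO and WT (median -0.061), 5 between Het and WT (0.028) and 0 between KO and Het (-0.11).

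**Figure D4:**
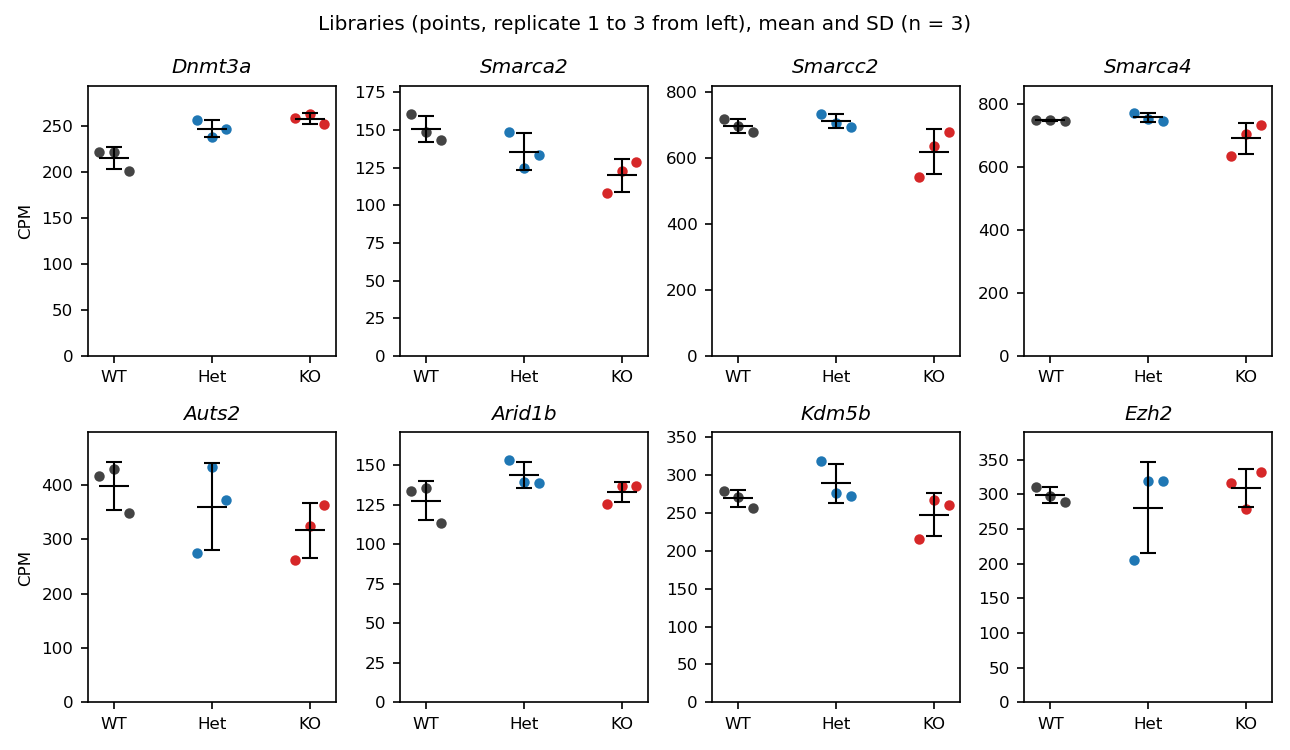
CPM of 8 members by genotype, with each library as a point (replicates 1 to 3 from left) and the mean and SD of 3 libraries in black. Dnmt3a is lower in all WT libraries (201 to 222) than in Het and KO (238 to 263), Smarca2 is lower in KO (108 to 129) than in WT (143 to 160.3), and Ezh2 is low in Het 1 alone (205).

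Among the adaptors, AUTS2 turns a Polycomb complex into an activator in neurons. Auts2 was at 417, 429 and 347 CPM in WT, 274, 433 and 372 in Het, and 262, 324 and 363 in KO. The groups overlapped, and the lowest libraries were KO 1 and Het 1. The KO and WT difference was -0.33 log2 (95% interval -0.74 to 0.081, edgeR adjusted p = 0.870). It was -0.54 among the libraries with D, 0.064 between those with F and -0.22 without KO 1. Auts2 lies on chromosome 5, 12.7 Mb from Med13l.

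ADNP joins CHD4 and the heterochromatin protein HP1. Adnp was at 311, 264 and 213 CPM in WT, 313, 335 and 289 in Het, and 257, 312 and 291 in KO. The groups overlapped, and Het was 0.25 log2 above WT (95% interval -0.064 to 0.57, edgeR adjusted p = 0.999). That difference was 0.39 without WT 1, 0.13 without WT 3 and 0.12 without both WT 3 and KO 1. A coding gene on the same strand, Gm20716, overlaps Adnp and had 34.3% as many counts, so the split of reads between them is uncertain. POGZ also binds HP1, and ANKRD11, which is mutated in KBG syndrome, binds the deacetylase HDAC3. Pogz averaged 188 ± 13.48, 201 ± 9.14 and 193 ± 24.0 CPM, and Ankrd11 390.4 ± 54.1, 419 ± 28.7 and 402 ± 25.0, in WT, Het and KO (SD, n = 3). Neither differed by more than 0.10 log2 in any comparison.

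The H3K4 methyltransferases KMT2A, KMT2C and KMT2D mark promoters and enhancers, and KMT2D is the main gene of Kabuki syndrome. Kmt2a averaged 386 ± 85.0 CPM in WT, 435 ± 26.8 in Het and 399.9 ± 73.4 in KO (SD, n = 3). Its lowest libraries were WT 3 (288) and KO 1 (316), and the others lay between 419.8 and 466. Kmt2c showed the same libraries low, at 163 in WT 3 and 162 in KO 1 against 208 to 256 elsewhere. Kmt2d was lowest in WT 3, at 214, and otherwise lay between 244 and 293. The 3 genes differed by -0.079 to 0.10 log2 between KO and WT, with the widest interval, that of Kmt2c, from -0.51 to 0.35. Kmt2c is on chromosome 5 too, 93.1 Mb from Med13l.

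Histone demethylases hold 2 of the 3 X-linked members. Kdm5b, which is autosomal and encodes an enzyme that removes H3K4 methylation, was at 279, 271 and 256 CPM in WT, 318, 276 and 271 in Het, and 216, 266 and 261 in KO. KO lay below Het, by -0.22 log2 (95% interval -0.45 to 0.011, edgeR adjusted p = 0.607), and overlapped WT. The highest and the lowest libraries were Het 1 and KO 1, and without that pair the difference was -0.059.

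Kdm5c, a close relative with the same activity, was at 240.3, 172 and 144 CPM in WT, 240.2, 176 and 238 in Het, and 166, 181 and 244 in KO. Kdm6a, which encodes an enzyme that removes a Polycomb mark, was at 84.4, 61.3 and 42.5 in WT, 84.5, 53.9 and 86.4 in Het, and 55.5, 56.3 and 88.0 in KO. Both were high in WT 1, Het 1, Het 3 and KO 3, and these 4 libraries did not overlap the other 5. The same 4 libraries held Xist, the RNA that coats the inactive X chromosome, at 1804 to 2192 CPM, while the other 5 held at most 0.321. The labels give no sex. The ratio of the medians was 1.40 for Kdm5c and 1.54 for Kdm6a, both genes known in the mouse to escape X inactivation. Smc1a, the X-linked gene of a cohesin subunit, was at 307, 316 and 262 CPM in WT, 254, 321 and 316 in Het, and 322, 309.9 and 311 in KO. Its 4 and 5 libraries overlapped, with a ratio of 0.977. By this split, 22 of 638 tested X-linked genes (3.45%) and 1 of 32 autosomal members, Arid1a, did not overlap, against 2.69% of all genes.

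Adding the Y-linked homologs per kb of annotated exon narrowed the gap, by an amount that depends on the exon lengths used. Kdm5d was at 83.1 to 102.7 CPM in the 5 libraries without Xist and at most 0.399 in the 4 with it, and Uty, the homolog of Kdm6a, at 22.4 to 30.7 and at most 0.0938. Summed per kb, Kdm5c and Kdm5d came to 33.4 to 34.3 CPM in the 4 libraries with Xist and 25.8 to 31.9 in the other 5. On these lengths the ratio of medians fell from 1.40 for Kdm5c alone to 1.09 for the sum. It fell from 1.54 for Kdm6a alone to 1.075 for Kdm6a with Uty. The annotated exons of Kdm5d are longer than those of Kdm5c. In WT 2, 102.7 CPM of Kdm5d gave 6.78 per kb, and 172 CPM of Kdm5c gave 24.2. A shorter length for Kdm5d would raise the sum without Xist, so the size and direction of that remaining gap are uncertain. Genotype groups held the libraries with Xist unequally, 1 of 3 in WT, 2 of 3 in Het and 1 of 3 in KO. With Xist status as a factor in edgeR's fit, the Het and WT difference went from 0.23 to 0.076 log2 for Kdm5c and from 0.26 to 0.039 for Kdm6a. Between KO and WT, which held 1 such library each, it went from 0.086 to 0.095 for Kdm5c and from 0.087 to 0.092 for Kdm6a.

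The stretches just before the RefSeq starts of Kdm6a and Smc1a are shown because Kdm6a separated by Xist and Smc1a, on the same chromosome, did not. Each has 250 bases on the plus strand of GRCm38.p6, at chrX:18162325-18162574 and chrX:152016178-152016427, with CG dinucleotides in capitals. The motif searched was CG, which reads the same on both strands. Kdm6a has 15 and Smc1a 16, counts that 27.3% and 25.4% of 32851 mouse promoters of the same length reach, and 92.1% hold at least 1. Kdm5c has 10, a count that 37.8% reach, in a window that overlaps the annotated gene and is therefore not shown.
Kdm6a: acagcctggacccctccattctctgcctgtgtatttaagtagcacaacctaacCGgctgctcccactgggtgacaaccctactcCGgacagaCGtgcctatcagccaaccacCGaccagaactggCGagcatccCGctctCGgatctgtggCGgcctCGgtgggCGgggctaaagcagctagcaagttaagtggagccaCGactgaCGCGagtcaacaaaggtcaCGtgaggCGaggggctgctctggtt
Smc1a: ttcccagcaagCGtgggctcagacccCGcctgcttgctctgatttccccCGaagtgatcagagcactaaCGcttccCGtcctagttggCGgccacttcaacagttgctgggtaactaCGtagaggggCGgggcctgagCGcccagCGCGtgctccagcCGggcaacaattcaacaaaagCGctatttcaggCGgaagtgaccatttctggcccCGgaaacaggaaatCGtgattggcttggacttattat

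**Figure D5:**
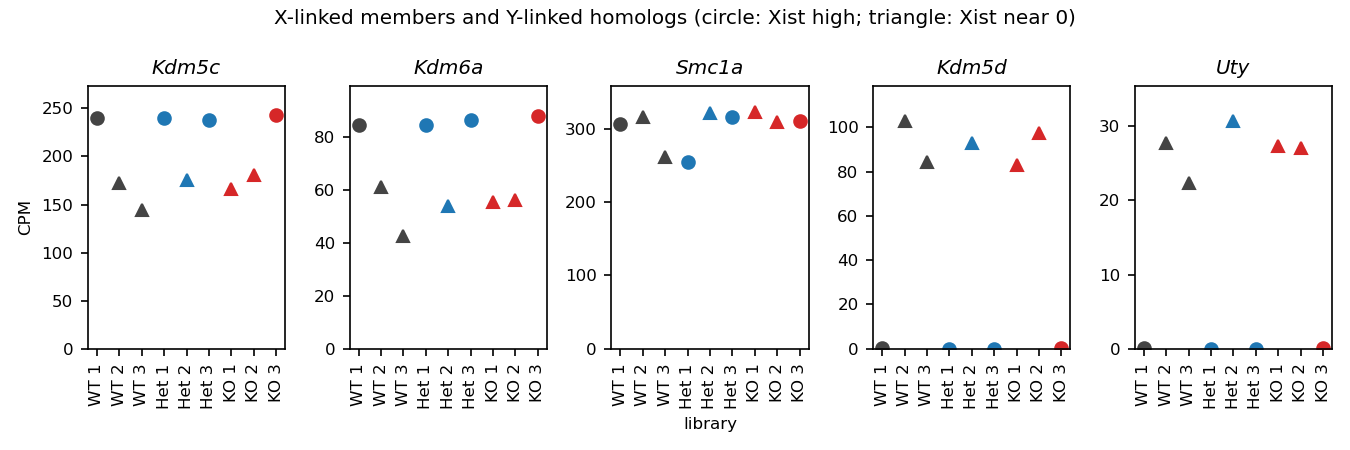
CPM in each library of the X-linked members Kdm5c, Kdm6a and Smc1a and of the Y-linked homologs Kdm5d and Uty; circles mark the 4 libraries with Xist, triangles the 5 without, and colours the genotype. Kdm5c (238 to 244 against 144 to 181) and Kdm6a (84.4 to 88.0 against 42.5 to 61.3) separate by Xist, and Smc1a does not.

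Dnmt3a had the smallest p of all members. It encodes a methyltransferase that sets DNA methylation on unmethylated sites, and its loss in people causes an overgrowth syndrome. It was at 221, 222 and 201 CPM in WT, 257, 238 and 246 in Het, and 258, 263 and 252 in KO. Both mutant genotypes lay above all WT libraries and overlapped each other. The KO and WT difference was 0.26 log2 (SE 0.070, 95% interval 0.11 to 0.42), with an unadjusted p of 0.00442 and an adjusted p of 0.858 in edgeR. Het and WT differed by 0.20 log2 (SE 0.070, 95% interval 0.044 to 0.36, edgeR adjusted p = 0.999), using the same WT libraries. Between KO and WT the difference was 0.23 among the libraries with D, 0.33 between those with F, and from 0.22 to 0.28 over 20 other settings. The adjusted p was 0.0834 with DESeq2 and at least 0.308 in the other settings, so none called it.

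The histone methyltransferases showed less. EZH2 is the catalytic subunit of Polycomb complex PRC2, and Ezh2 was chosen for description after its values were seen. It was at 311, 298 and 288 CPM in WT, 205, 319 and 319 in Het, and 316, 279 and 332 in KO. The 8 libraries other than Het 1 lay between 279 and 332, and Het 1 also had the lowest level of all 15 cycling cell markers (summed CPM 1580 against 2527 to 3601), whose part was not tested. Without Het 1 the Het and WT difference turned from -0.091 to 0.089 log2. Setd5, a SET-domain gene mutated in intellectual disability, averaged 319.6 ± 31.4 CPM in WT, 333 ± 28.9 in Het and 344 ± 4.39 in KO (SD, n = 3), and the KO libraries lay just above the WT ones. Nsd1, the gene of Sotos syndrome, averaged 402 ± 45.7, 431 ± 23.9 and 421 ± 28.9 CPM. Ehmt1, mutated in Kleefstra syndrome, averaged 206 ± 12.01, 216 ± 7.36 and 215 ± 8.79, and Setd2, which marks transcribed gene bodies, 217 ± 23.0, 237 ± 10.4 and 222 ± 16.4. These last 3 differed by at most 0.12 log2 in any comparison.

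CREBBP and EP300 are paired acetyltransferases of enhancers, both mutated in Rubinstein-Taybi syndrome. Crebbp averaged 149.8 ± 16.1, 159.9 ± 4.36 and 153 ± 20.7 CPM and Ep300 194 ± 31.1, 214 ± 13.1 and 197 ± 27.3 in WT, Het and KO (SD, n = 3). WT 3 and KO 1 were again the low libraries of both, at 131 and 129 CPM for Crebbp and 159 and 165 for Ep300. KO and WT differed by 0.026 and 0.020 log2. Per kb, Crebbp stood at 0.819 ± 0.048, 0.787 ± 0.029 and 0.818 ± 0.0062 of Ep300 in WT, Het and KO, so the pair varied together.

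No cohesin gene passed the test between KO and WT. SMC1A, SMC3 and RAD21 form the ring, NIPBL loads it and is the main gene of Cornelia de Lange syndrome, and CTCF halts it at loop anchors. Rad21 was at 392, 389 and 326 CPM in WT, 339.6, 407 and 412 in Het, and 406, 407 and 407 in KO, where all KO libraries lay above all WT ones by 0.14 log2 on average (95% interval -0.092 to 0.37). Smc3 also did not overlap, at 202 ± 14.1 CPM in WT and 218 ± 6.999 in KO (SD, n = 3), a difference of 0.11 log2. Nipbl averaged 145 ± 19.7, 151 ± 22.8 and 147 ± 11.6 CPM, and Ctcf 216 ± 13.7, 224 ± 18.1 and 226 ± 11.5, in WT, Het and KO. All 5 had a positive log2 fold change in KO against WT, with a median of 0.092. Without WT 3 the median was 0.0161 and Nipbl stood at -0.071, with Smc1a at 0.0161, Smc3 at 0.0595, Rad21 at 0.0607 and Ctcf at 0.0115. Without both WT 3 and KO 1, Smc1a (-0.0047) and Nipbl (-0.038) were negative. In KO against Het 4 of 5 were positive, with a median of 0.030. On the relative log2 scale the median of these genes was lowest in WT 3, at -0.20, and next in Het 1, at -0.15. Het 1 also had the lowest summed cycling cell markers (1580 CPM). Their sums were higher in all KO libraries (3103 to 3601 CPM) than in all WT libraries (2527 to 2930 CPM). The part of cycling cells in the levels of these genes was not tested.

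Other genes of the same complexes were also read from lists, and edgeR, DESeq2 and limma-voom called 0 of them in any comparison. Of the 103, edgeR put 2 under an unadjusted p of 0.05 between KO and WT, 1 between Het and WT and 2 between KO and Het, where the shares over all genes were 5.72%, 1.56% and 7.74%. DESeq2 put 2, 2 and 5 there, and limma-voom 2, 1 and 1. Among 23 other BAF and PBAF subunits, 8 were positive in KO against WT and the median was -0.088 log2. The most negative was Actl6b, the actin-like subunit that BAF takes up in neurons, at 57.5, 52.8 and 73.2 CPM in WT, 94.9, 39.0 and 55.0 in Het, and 24.3, 45.3 and 48.7 in KO (-0.63 log2, edgeR adjusted p = 0.870). Its highest and lowest libraries were Het 1 and KO 1, as for the summed neuron markers (7081 and 2425 CPM). Without KO 1 its difference was -0.39, and without both WT 3 and KO 1 it was -0.23. The most positive was Smarcd2, at 0.17, and at 0.057 without KO 1. Dpf3, another neuronal BAF subunit, was at 46.2 CPM in Het 1 and 3.25 to 9.46 elsewhere, and Ss18l1, the neuronal counterpart of Ss18, was -0.47 log2 in KO against Het (95% interval -0.89 to -0.054, edgeR adjusted p = 0.607).

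Of 13 other NuRD subunits, 9 were positive (median 0.041), from Chd5 at -0.48, a neuronal CHD gene, to Rbbp7 at 0.17. Chd5 likewise peaked in Het 1 (155 CPM) and was lowest in KO 1 (21.9). Without KO 1, Chd5 was at -0.12 and Rbbp7 at 0.064, and without both WT 3 and KO 1, Chd5 turned to 0.048. Among 14 other KMT2 and SET1 complex genes 9 were positive (median 0.0053), from Cxxc1 at -0.12 to Pagr1a at 0.55, which had at most 6.55 CPM and was at 0.27 without WT 1. The 9 other PRC2 genes gave 5 positive (median 0.022), from Ezh1 at -0.16 to Suz12 at 0.14. Ezh1 was at -0.080 without KO 1, and Suz12 at 0.063 without WT 3. Of 11 other cohesin genes, 8 were positive (median 0.10), from Esco1 at -0.13 to Cdca5 at 0.33. Cdca5, which protects cohesin in dividing cells, averaged 26.8 ± 1.73 CPM in WT and 33.8 ± 3.95 in KO (SD, n = 3) and was lowest in Het 1, at 14.96.

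The 19 other histone and DNA methylation genes gave 13 positive (median 0.058). Kdm6b was the most negative, at -0.14 (-0.045 without KO 1), and Dnmt3b, the other enzyme that sets DNA methylation, the most positive, at 0.46 (95% interval 0.075 to 0.84, edgeR adjusted p = 0.858). Dnmt3b was low in all groups, at 11.8, 12.1 and 8.74 CPM in WT, 12.8, 10.6 and 11.5 in Het, and 17.2, 13.6 and 13.95 in KO, where it lay above both other groups. Without WT 3 and KO 1 its difference was 0.21. Among 14 partners of the adaptors, 9 were positive (median 0.016), from Pcgf3 at -0.14 to Pcgf5 at 0.24, both subunits of the Polycomb complexes that AUTS2 joins. Without KO 1 they were at -0.086 and 0.064. Rnf2, the ubiquitin ligase of those complexes, was at 121, 129 and 112 CPM in WT, 156, 143 and 139 in Het, and 139, 145 and 139 in KO. All mutant libraries lay above WT, by 0.22 log2 in KO (95% interval 0.051 to 0.40, edgeR adjusted p = 0.858) and 0.28 in Het (95% interval 0.10 to 0.45, edgeR adjusted p = 0.999). Like Dnmt3a, it passed no adjusted threshold, and both of its comparisons share the WT libraries. The medians of the 7 lists lay between -0.067 and 0.059 log2 for Het against WT and between -0.067 and 0.11 for KO against Het.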

How the data were processed

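The authors deposited whole-number read counts per Ensembl gene, not normalised, for 9 bulk RNA-seq libraries of embryonic mouse cortex. Build mm10 and the tools StringTie 2.2.1, STAR 25.2b, Cell Ranger 6.6.1, Seurat and FastQC 0.11.9 appear, with no roles given, in the submitters' processing notes. Which tool counted, with what annotation, by which strand rule and how reads with several matches were handled is not given in the sources used here, so counts of overlapping and near-identical genes are uncertain. Symbols, positions and exon lengths (the union of exons) came from GENCODE M21 on GRCm38, and promoter sequences from RefSeq on GRCm38.p6, which held an entry for 27 of 35 members.

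Tests used edgeR 4.0.16 under R 4.3.3 (TMM, filterByExpr by genotype, robust quasi-likelihood F test, 1 coefficient per genotype, no covariate), on all 9 libraries in 1 fit and over 18844 genes holding 99.95% of the counts. TMM factors ran from 0.978 to 1.03, and genes varied between libraries by a common biological coefficient of 28.2%. Benjamini-Hochberg adjustment ran over all genes of a comparison, and called means an adjusted p under 0.05. The F statistic gave the standard errors and 95% intervals of log2 fold changes. Relative levels are log2(CPM + 0.5) minus the gene's mean over 9 libraries. The script was tested on simulated data.

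The 35 members, the lists of related genes and markers, and the alternatives were chosen with earlier results of these data known. Values in every library are given for the 4 members with the smallest unadjusted p in each comparison, the X-linked members, and the 2 highest and 2 lowest per kb; Ezh2, Rad21, Rnf2, Dpf3 and Ss18l1 were added after their values were seen. From each related list the most positive and most negative gene in KO against WT were named. Alternatives were RLE factors, no filter, a filter of 1 CPM in 3 libraries, DESeq2 1.42.0, limma-voom 3.58.1, 2-group fits, blocks by replicate number or by the D or F letter, Xist as a factor, leaving out each library, and leaving out Het 1 with KO 1. Leaving out WT 3 with KO 1 was added after seeing the data.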

Additional observations from a re-analysis of the deposited data

How the results depend on the processing

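Over 20 other settings, 0 members were called in any of the 3 comparisons. The count of members at an unadjusted p under 0.05 in KO against WT was 2, and became 3 in the 2-group fit, with Auts2 added. In Het against WT it was 1, and became 2 with Xist as a factor, 2 without Het 1 and KO 1, and 0 without WT 3 and KO 1. In KO against Het it was 0, and became 1 with the filter of 1 CPM in 3 libraries, 1 with DESeq2 and 1 with limma-voom. Leaving out each library in turn gave 2 to 3 in KO against WT, 1 to 3 in Het against WT and 0 to 1 in KO against Het. The cause was not tested. Of 2100 log2 fold changes of single members, 2084 moved by less than their standard error in the fit of all 9 libraries. The other 16 moved by more, all when 1 or 2 libraries were left out. Same-numbered libraries did not deviate together in each pair (correlations from -0.27 to 0.27), so the numbers were not taken to pair them; with a replicate block the counts of members at an unadjusted p under 0.05 were 2, 1 and 0 and the medians 0.047, 0.090 and -0.058, with 0 members called. Over all genes DESeq2 called 18, 1 and 27, against 1, 0 and 1. With 3 libraries per genotype, the widest 95% interval of a member in KO against WT reached 0.66 log2 on either side and the narrowest 0.14; a difference larger than its interval need not pass the adjusted threshold, as Dnmt3a and Smarca2 did not.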
